A study of Mus musculus with 6 samples.

Results

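The Hox genes of inguinal white adipose tissue (iWAT), the subcutaneous fat pad of the groin, were examined in *Hlx* transgenic (TG) mice and their wild-type (WT) littermates. They were chosen by name. A row of the deposited table was taken if it carried a gene symbol that begins with Hoxa, Hoxb, Hoxc or Hoxd followed by a digit, and 43 of the 19445 rows did. These rows hold 39 protein-coding Hox genes and the antisense transcript Hoxa11as. Each of 3 TG and 3 WT mice gave 1 library. The mice were 12 weeks old and labelled as male. The transgene was the full-length *Hlx* cDNA under a fragment of the *aP2* (*Fabp4*) promoter, which is active in adipocytes. It was introduced into C57BL/6 × SJL hybrid embryos, and the line was then backcrossed to C57BL/6.

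Hox genes encode homeodomain transcription factors that give cells their position along the body axis. In the mouse they lie in 4 clusters on different chromosomes, and members at the same place in different clusters form a paralog group. Low-numbered (anterior) genes are switched on early and towards the head, and high-numbered (posterior) genes late and towards the tail. Many of the proteins bind DNA together with Pbx and Meis cofactors. Fat pads keep Hox patterns that reflect where in the body they formed. Polycomb proteins keep silent Hox genes closed, and Trithorax-type proteins keep active ones open. *Hlx* is itself a homeobox gene, but it lies outside the Hox clusters.

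The values are FPKM, a read density per transcript length and per mapped reads, so levels of different genes can be set side by side. FPKM summed to between 466059 and 542096 per library, and the absolute depth is unknown. Steps between low values put the relative depth between 0.690 and 1.42, with the library of WT replicate 3 as 1. The TG libraries 1 and 3 were the shallowest. *Hlx* had 110, 79.6 and 99.5 FPKM in the TG mice and 6.88, 7.35 and 8.14 FPKM in the WT mice, in accord with the genotype labels. All 6 libraries went against the label of male mice. *Xist*, the RNA of the inactive X chromosome, had between 20.2 and 33.6 FPKM, and each of the 28 Y-linked loci was at 0 throughout. Differences below are TG minus WT in log2(FPKM + 1), a scale that makes changes of low genes look smaller. They were tested with limma among the 11692 loci with a mean above 1 FPKM in at least 1 genotype, and p-values were adjusted over all of these. An exact permutation test of 3 mice against 3 cannot give a p below 0.1. In whole tissue, fewer cells of a type and less RNA per cell cannot be told apart.

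iWAT of both genotypes carried a Hox pattern that reached up to paralog group 10, and posterior to that no row reached 1 FPKM. The highest WT means were those of Hoxc8 (35.6 FPKM), Hoxc10 (28.9 FPKM) and Hoxc6 (27.2 FPKM). The joint row of Hoxa7 and Mira followed at 14.3 FPKM, then the first Hoxa10 row at 10.004 FPKM and Hoxa9 at 9.51 FPKM. Of the 43 rows, 26 were tested and 17 stayed below the limit of 1 FPKM. None of the 10 rows of groups 11 to 13 was tested. Hoxa13, Hoxb1, Hoxc12, Hoxc13, Hoxd1, Hoxd11, Hoxd12 and Hoxd13 were listed at 0 in every library. The Hoxc cluster gave more than any other cluster in each mouse, with 57.4% to 59.3% of summed Hox FPKM in TG and 53.1% to 56.3% in WT iWAT.

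**Figure D1:**
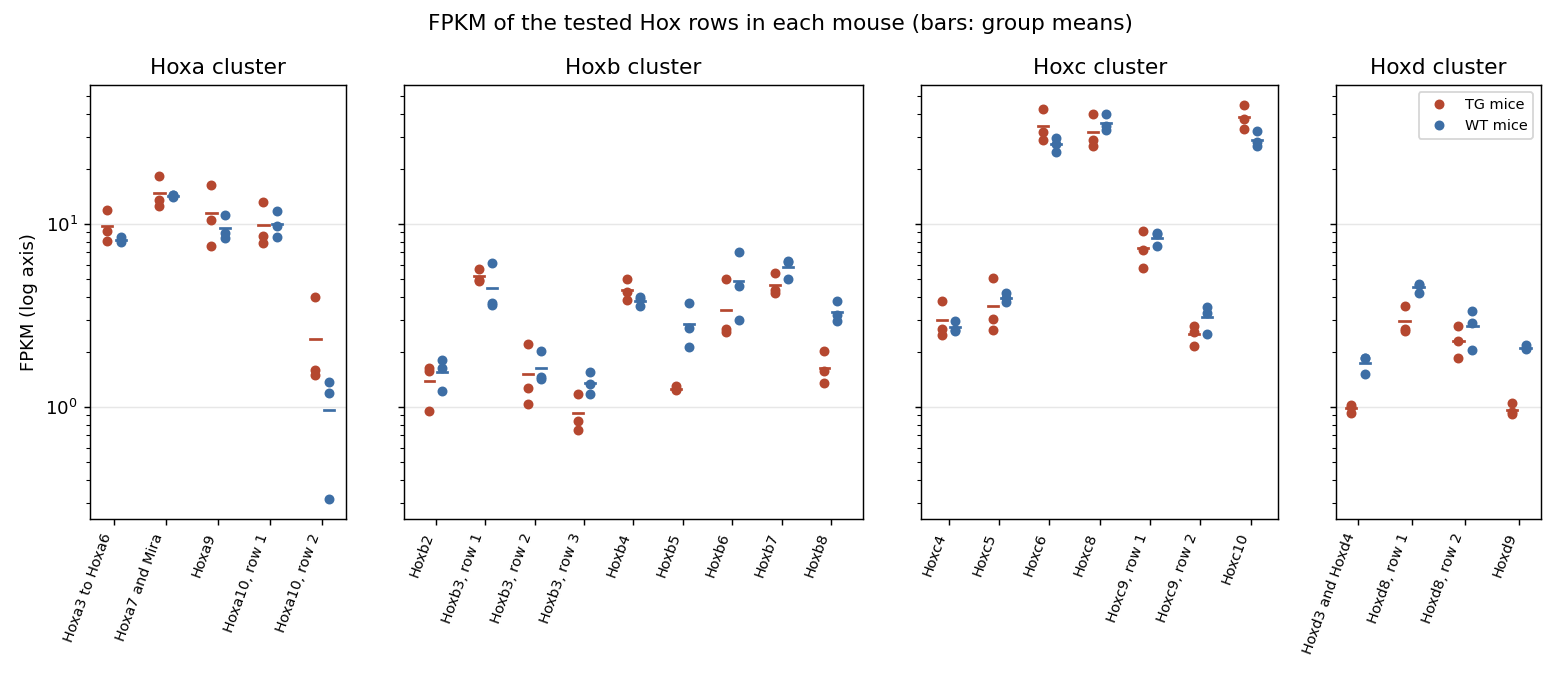
FPKM of the tested Hox rows named in the text, 1 panel per cluster, on a logarithmic axis. Points are single mice, 3 TG and 3 WT, and short bars are group means. Hoxc8, Hoxc10 and Hoxc6 were highest, and at Hoxd9 the TG mice sit between 0.911 and 1.05 FPKM, below the 3 WT mice.

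Of the 26 tested Hox rows, 5 fell in TG iWAT and 0 rose by the limma test, with 0.05 as the limit of the adjusted p and 3 mice in each group. The 5 were Hoxd9, Hoxd8 row 1, the joint row of Hoxd3 and Hoxd4, Hoxb8 and Hoxb5. The lower rows were thus 19.2% of the tested Hox rows, against 7.03% of all tested loci. Higher loci made up 11.6% of all tested loci, and loci called in either direction 18.6%. The same 5 were the only tested Hox rows with every TG mouse below every WT mouse. That share, 19.2%, was close to the 20.1% of all tested loci that lay apart in this way. Hoxa10 row 2 and Hoxc10 lay apart in the other direction, as did 22.8% of all tested loci. The median difference was -0.13 over the Hox rows and -0.01 over all tested loci. The 5 calls were split between 2 clusters, with 3 of 4 tested Hoxd rows, 2 of 9 Hoxb rows, 0 of 7 Hoxc rows and 0 of 6 Hoxa rows. The medians of the clusters were -0.48, -0.28, -0.15 and 0.20 in the same order. When a mouse was left out, between 2 and 3 Hox rows were called lower.

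**Figure D2:**
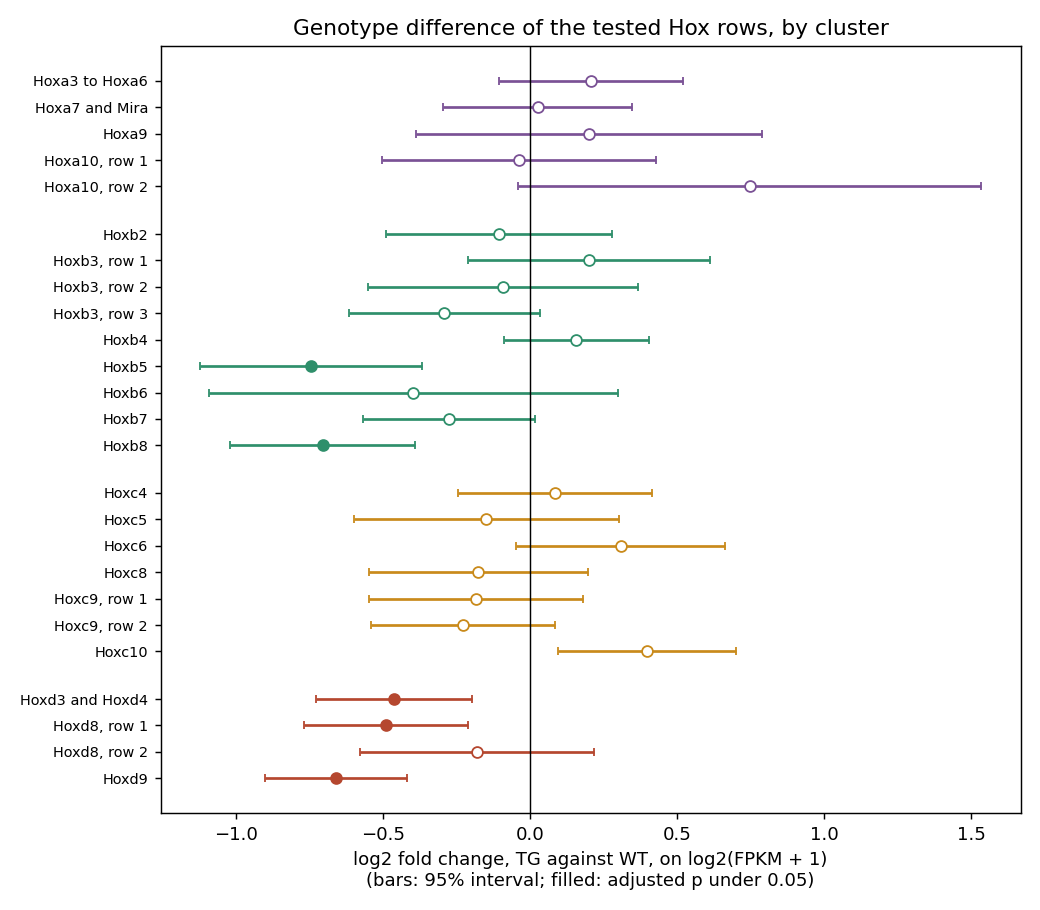
TG minus WT difference of each tested Hox row named in the text on the log2(FPKM + 1) scale, ordered by cluster. Bars are 95% confidence intervals from limma, and filled points mark an adjusted p under 0.05. The 5 called rows lie in Hoxd and Hoxb, and Hoxa10 row 2 has the highest estimate, 0.75.

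The Hoxd cluster lies on chromosome 2 of mm10, from 74668309 to 74765142. It gave the smallest part of the Hox RNA, and its genes help to pattern the limb and the lower trunk. The 250 bases before the start sites of 3 genes of its called rows are shown here for their sequence context, with those of Hoxb8 from the Hoxb cluster. They come from RefSeq, build GRCm38.p6, all on the plus strand. The windows are chr2:74697513-74697762 for Hoxd9, chr2:74704365-74704614 for Hoxd8, chr2:74711743-74711992 for Hoxd3 and chr11:96281655-96281904 for Hoxb8. Capitals mark TAAT, the core that many homeodomains bind, or its reverse complement ATTA:
Hoxd9: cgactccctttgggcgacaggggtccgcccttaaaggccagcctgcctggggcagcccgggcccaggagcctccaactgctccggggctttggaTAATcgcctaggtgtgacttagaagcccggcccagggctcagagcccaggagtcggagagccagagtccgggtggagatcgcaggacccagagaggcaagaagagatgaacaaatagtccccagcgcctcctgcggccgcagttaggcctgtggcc
Hoxd8: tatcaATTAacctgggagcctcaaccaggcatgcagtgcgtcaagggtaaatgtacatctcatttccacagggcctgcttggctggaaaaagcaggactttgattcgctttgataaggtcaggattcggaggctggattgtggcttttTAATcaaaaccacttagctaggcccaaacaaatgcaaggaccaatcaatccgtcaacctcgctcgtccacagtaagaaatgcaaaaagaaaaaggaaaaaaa
Hoxd3: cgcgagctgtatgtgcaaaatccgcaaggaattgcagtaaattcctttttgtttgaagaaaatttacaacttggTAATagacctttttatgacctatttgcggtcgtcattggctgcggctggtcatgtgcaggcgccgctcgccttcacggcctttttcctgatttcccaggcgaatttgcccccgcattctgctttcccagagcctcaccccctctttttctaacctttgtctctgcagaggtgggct
Hoxb8: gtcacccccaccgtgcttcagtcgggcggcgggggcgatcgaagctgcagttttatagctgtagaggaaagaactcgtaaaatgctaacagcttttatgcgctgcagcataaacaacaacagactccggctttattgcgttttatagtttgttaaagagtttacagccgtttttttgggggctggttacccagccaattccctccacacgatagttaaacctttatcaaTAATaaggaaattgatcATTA

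TAAT, read on both strands, was found once before Hoxd9, at 2 places before Hoxd8, once before Hoxd3 and at 2 places before Hoxb8, and it was not found before Hoxd4. Windows were at hand for 22 of the 39 protein-coding genes, 24 windows in all, and there was no entry for Hoxb5. TAAT was in 18 of the 24 Hox windows (75%) and in 54.9% of all 32851 promoter windows of the same length. TGATNNAT, a motif of Hox and Pbx pairs, was in 4 of the 24 Hox windows, 1 of them that of Hoxb8, and in 7.68% of all windows. TATAAA was in 4 of the 24 Hox windows, against 12.4% of all windows, and the Hoxb8 window held 2 matches. CCAAT was in 14 of the 24 Hox windows, against 33.8% of all. GGGCGG was in 10, against 32.7% of all. The median GC content was 58.6% in the Hox windows and 52.4% in all. These 5 motifs can overlap each other, and both strands were searched.

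Hoxd9, a posterior gene with a role in the hindlimb and lumbar region, had 0.911, 1.05 and 0.940 FPKM in the TG mice. The WT mice had 2.09, 2.08 and 2.17 FPKM. The groups did not overlap, and the mice of each genotype lay close together. The means were 0.968 ± 0.075 and 2.11 ± 0.049 FPKM (SD, n = 3), a TG to WT ratio of 0.458. Hoxd9 differed by -0.66 (standard error 0.10, limma adjusted p = 0.00686). The call was lost in none of the 16 other settings compared. The adjusted p ran up to 0.0328 in these. Hoxd9 lies at chr2:74697762-74700208.

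Hoxd8 is listed on 2 rows of the same gene, at chr2:74703010-74708008 for the first. Row 1 had 3.57, 2.65 and 2.62 FPKM in TG and 4.21, 4.68 and 4.66 FPKM in WT mice. All TG mice were below all WT mice. The difference was -0.49 (standard error 0.12, limma adjusted p = 0.0310). The call was lost in 8 of 15 other settings. Row 2 overlapped between genotypes, with 2.28, 1.85 and 2.78 FPKM in TG and 2.88, 3.36 and 2.05 FPKM in WT mice (difference -0.18, limma adjusted p = 0.469). With both rows summed, Hoxd8 had 5.25 ± 0.686 FPKM in TG and 7.28 ± 0.685 FPKM in WT iWAT (SD, n = 3; difference -0.41, limma adjusted p = 0.0449). This summing was added after the data were seen.

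Hoxd3 and Hoxd4, anterior genes of the cluster, share 1 row, so the reads cannot be divided between them. That row, chr2:74710043-74748271, had 0.997, 0.931 and 1.02 FPKM in TG and 1.52, 1.86 and 1.85 FPKM in WT mice. The groups lay apart. Its means were 0.984 ± 0.047 and 1.74 ± 0.191 FPKM (SD, n = 3; difference -0.46, standard error 0.11, limma adjusted p = 0.0313). The call was lost in 7 of the 16 other settings. The exons of the antisense gene Hoxd3os1 overlap this row, and the sequencing kit does not mark strand, so their reads cannot be told apart. Hoxd10, next to Hoxd9 at chr2:74691947-74695102, was below the limit on level and was not tested in the main comparison. It had 0.165, 0.248 and 0.375 FPKM in TG and 0.826, 0.701 and 0.590 FPKM in WT mice, again with all TG mice lower. The test without the filter gave a difference of -0.43 (standard error 0.08, limma adjusted p = 0.0237). The other Hoxd genes, groups 11 to 13 and Hoxd1, were listed at 0. Summed over the cluster, Hoxd was 7.92, 6.74 and 7.74 FPKM in TG and 11.5, 12.7 and 11.3 FPKM in WT mice, which is 3.12% to 4.34% of the Hox sum in TG and 5.37% to 6.25% in WT mice.

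**Figure D3:**
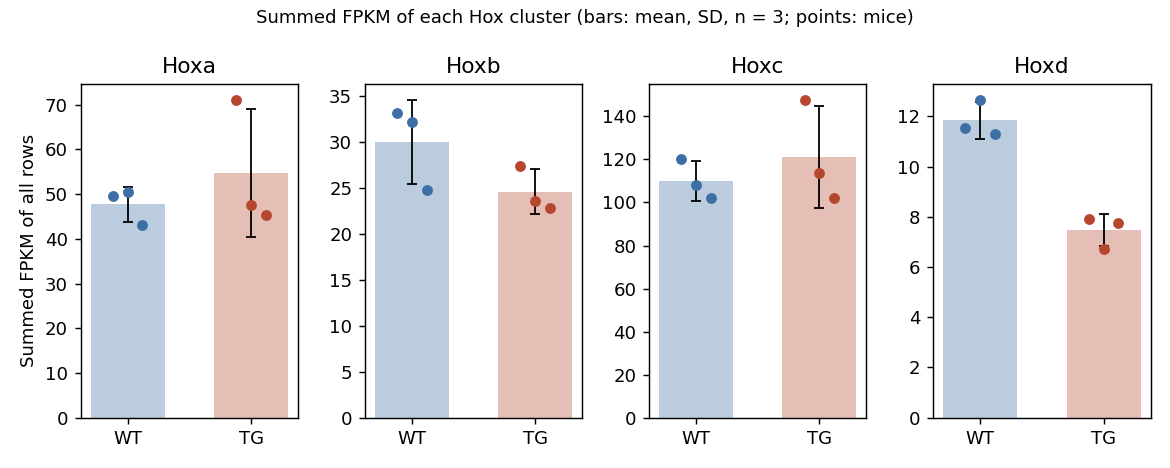
Summed FPKM of each Hox cluster, with points for mice, bars for the mean and error bars for the SD of each genotype (n = 3). The Hoxd sum separates the genotypes, at 7.47 ± 0.639 FPKM in TG and 11.8 ± 0.730 FPKM in WT iWAT, and the other 3 clusters overlap.

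The Hoxb cluster lies on chromosome 11 from 96194360 to 96368253. Hoxb8, a gene of trunk patterning and of blood cell progenitors, was at chr11:96281904-96285325. It had 1.35, 2.01 and 1.57 FPKM in TG and 3.80, 2.95 and 3.17 FPKM in WT mice. The groups lay apart, with means of 1.64 ± 0.336 and 3.31 ± 0.439 FPKM (SD, n = 3), a ratio of 0.497. The difference was -0.71 (standard error 0.13, limma adjusted p = 0.0135). The call was lost only where an adjusted p under 0.01 was required, and it stayed between -0.80 and -0.63 with a mouse left out.

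Hoxb5, at chr11:96303511-96306121, had 1.24, 1.30 and 1.25 FPKM in TG and 2.70, 3.72 and 2.12 FPKM in WT mice. WT replicate 2 was the highest, and each WT mouse was above each TG mouse. The difference was -0.75 (standard error 0.16, limma adjusted p = 0.0213), the lowest of all tested Hox rows. Leaving out TG replicate 1, TG replicate 3 or WT replicate 1 gave adjusted p-values of 0.0557, 0.0663 and 0.0548. The antisense gene Hoxb5os overlaps its exons, and reads of the 2 cannot be told apart.

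The remaining Hoxb rows overlapped between genotypes. Hoxb7 had 5.43, 4.35 and 4.18 FPKM in TG and 6.28, 6.23 and 5.01 FPKM in WT mice (difference -0.28, limma adjusted p = 0.156). Hoxb6 had 4.98, 2.55 and 2.66 FPKM in TG and 4.58, 6.99 and 3.00 FPKM in WT mice (difference -0.40, limma adjusted p = 0.362). Both are central genes of the cluster and had fitted values below 0 without passing the test. Hoxb4 had 5.01, 3.86 and 4.26 FPKM in TG and 3.98, 3.87 and 3.58 FPKM in WT mice (difference 0.16, limma adjusted p = 0.317). Hoxb2 had 1.63, 0.949 and 1.57 FPKM in TG and 1.81, 1.62 and 1.22 FPKM in WT mice (difference -0.11, limma adjusted p = 0.670). Hoxb4 and Hoxb2, from the anterior side, lay on either side of 0. Hoxb3 is listed on 3 rows. Row 1 had 5.70, 4.91 and 4.91 FPKM in TG and 6.09, 3.71 and 3.63 FPKM in WT mice, row 2 had 1.04, 2.203 and 1.28 against 2.03, 1.46 and 1.42 FPKM, and row 3 had 0.749, 1.18 and 0.838 against 1.54, 1.17 and 1.33 FPKM. The 3 rows had differences of 0.20, -0.09 and -0.29, and their sum one of 0.04 (limma adjusted p = 0.864). Hoxb9 had 0.210 to 0.423 FPKM and Hoxb13 at most 0.0359 FPKM, and neither was tested. The Hoxb sum was 24.5 ± 2.44 FPKM in TG and 30.0 ± 4.58 FPKM in WT iWAT (SD, n = 3).

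The Hoxc cluster, on chromosome 15 from 102921130 to 103036852, held the highest Hox levels and no called row. Hoxc10, known as a gene of subcutaneous fat and of the hindlimb, had 44.9, 37.7 and 33.1 FPKM in TG and 32.1, 28.0 and 26.6 FPKM in WT mice. All TG mice were above all WT mice, with means of 38.6 ± 5.94 and 28.9 ± 2.89 FPKM (SD, n = 3). The difference of 0.40 (standard error 0.13) did not pass the test (limma adjusted p = 0.0717), and its unadjusted 95% interval ran from 0.095 to 0.70. Hoxc6 had 42.5, 31.8 and 28.6 FPKM in TG and 29.6, 27.4 and 24.7 FPKM in WT mice (difference 0.31, limma adjusted p = 0.188). Hoxc8 had 39.7, 28.7 and 26.7 FPKM in TG and 40.0, 34.2 and 32.7 FPKM in WT mice (difference -0.18, limma adjusted p = 0.449). In these 3 most abundant Hox genes, TG replicate 1 was the highest of the TG mice. Hoxc9 row 1 had 9.21, 7.20 and 5.78 FPKM in TG and 8.78, 7.59 and 8.92 FPKM in WT mice, and row 2 had 2.58, 2.75 and 2.15 against 3.28, 3.54 and 2.51 FPKM. The summed difference of Hoxc9 was -0.22 (limma adjusted p = 0.273). Hoxc5 had 5.09, 2.64 and 3.01 FPKM in TG and 3.93, 4.20 and 3.72 FPKM in WT mice (difference -0.15, limma adjusted p = 0.605). Hoxc4 had 3.79, 2.48 and 2.68 FPKM in TG and 2.59, 2.96 and 2.62 FPKM in WT mice (difference 0.08, limma adjusted p = 0.694). Both genes overlapped between genotypes. Hoxc11 had at most 0.232 FPKM in any mouse.

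The Hoxa cluster on chromosome 6 had no row that passed the test. The joint row of Hoxa3 to Hoxa6 had 11.9, 9.19 and 8.09 FPKM in TG and 8.22, 8.46 and 7.94 FPKM in WT mice (difference 0.21, limma adjusted p = 0.301). The groups overlapped. The joint row of Hoxa7 and Mira had 18.3, 12.5 and 13.5 FPKM in TG and 14.04, 14.4 and 14.5 FPKM in WT mice (difference 0.02, limma adjusted p = 0.911). Hoxa9 had 16.4, 10.5 and 7.57 FPKM in TG and 11.2, 8.94 and 8.38 FPKM in WT mice (difference 0.20, limma adjusted p = 0.595). TG replicate 1 was again the highest of the 6 mice on both rows, and without it the differences turned to -0.13 and -0.07. Hoxa10 row 1 had 13.2, 7.84 and 8.58 FPKM in TG and 9.72, 11.8 and 8.48 FPKM in WT mice (difference -0.04, limma adjusted p = 0.906). Row 2 had 4.01, 1.59 and 1.49 FPKM in TG and 1.19, 1.38 and 0.314 FPKM in WT mice (difference 0.75, standard error 0.33, limma adjusted p = 0.155). Summed, Hoxa10 differed by 0.12 (limma adjusted p = 0.749). Hoxa2 had 0.359 to 0.659 FPKM and Hoxa11 at most 0.0947 FPKM, and neither was tested. A separate Hoxa3 row, also below the limit, had 0.731, 0.748 and 0.823 FPKM in TG and 0.604, 0.637 and 0.617 FPKM in WT mice. All TG mice were higher there. The test without the filter gave it a difference of 0.13 (standard error 0.04, limma adjusted p = 0.118). The exons of 4 antisense genes overlap the exons of the joint row of Hoxa3 to Hoxa6.

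By paralog group, the called rows were spread over groups 3, 4, 5, 8 and 9, with joint rows counted in each of their groups. Group 8 was the one with 2 calls, Hoxb8 and Hoxd8 row 1. All 4 of its tested rows were fitted below 0, with a median of -0.34. The most abundant member, Hoxc8, did not pass the test. In group 9, Hoxd9 fell while Hoxa9 and the 2 Hoxc9 rows did not pass. Group 10 had 3 tested rows, a median of 0.40 and no call. Groups 2, 6, 7 and 10 held 0 called rows. Within each mouse, the lower member of a group was set against an abundant one, as a description of pairs chosen after their values were seen. Hoxd9 was 5.54%, 10.01% and 12.4% of Hoxa9 in the TG mice and 18.7%, 23.2% and 25.9% in the WT mice. Hoxb8 was 3.39%, 6.998% and 5.87% of Hoxc8 in TG and 9.50%, 8.64% and 9.69% in WT mice. Hoxb5 was 10.4%, 14.1% and 15.4% of the joint row of Hoxa3 to Hoxa6 in TG and 32.8%, 44.0% and 26.7% in WT mice. In each of these pairs the genotypes did not overlap, but they already did not for the lower member alone. The ratios are therefore no separate support. None of the 5 called rows had the highest WT mean of its paralog group.

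Loci beside the clusters were compared for context, the 5 nearest tested ones on each side. Of 41 such loci, counting the microRNA Mir10a inside Hoxb, 7 were higher and 0 were lower in TG iWAT. Among all tested loci, 11.6% were higher and 7.03% lower. The median difference of the 41 loci was 0.02. Beside Hoxd, where Hox rows fell, Mtx2, a mitochondrial import gene, rose from 30.7 ± 1.40 to 58.4 ± 6.39 FPKM (SD, n = 3; difference 0.90, standard error 0.10, limma adjusted p = 0.00187). Its centre lies 134.6 kb from that of the cluster. Atf2, a transcription factor gene, and Chn1 rose too, with differences of 0.47 and 0.66 (limma adjusted p = 0.0105 and 0.0322). Their centres lie farther off, at -862.2 and -1031.1 kb on the side of lower coordinates. Lnp, the nearest tested locus on that side at -169.8 kb, had a difference of 0.04 (limma adjusted p = 0.838). The tested loci beside Hoxd reach as far as 1660 kb from its centre. Beside Hoxb, Nfe2l1 and Gngt2 rose by 0.53 and 0.45 (limma adjusted p = 0.0251 and 0.0362), and beside Hoxa, Hibadh, which breaks down valine, and Snx10 rose by 0.65 and 0.56 (limma adjusted p = 0.0199 and 0.00414). None of the 10 loci beside Hoxc passed the test. The flanking loci were chosen with the calls in view, and the differences between them and the Hox rows were not tested.

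**Figure D4:**
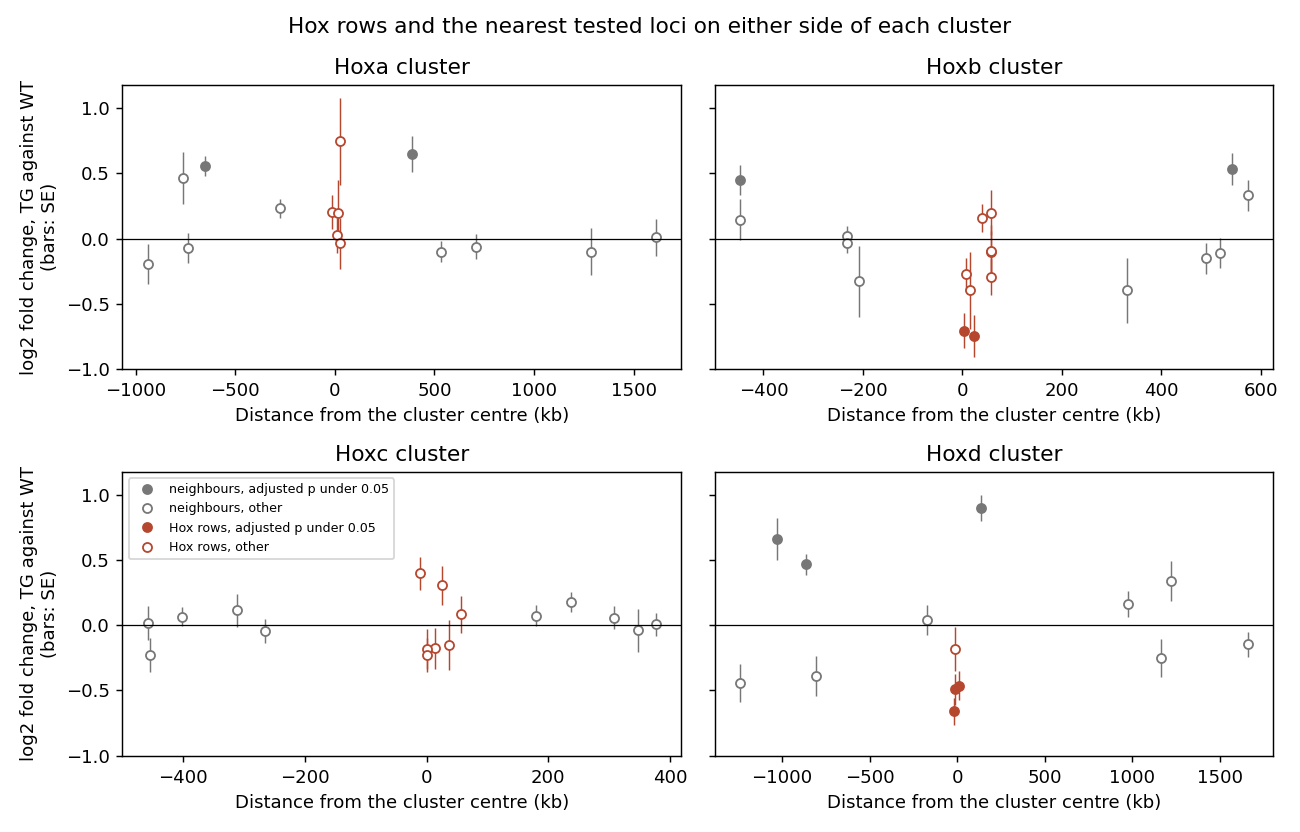
TG minus WT difference of the tested Hox rows named in the text and of the 5 nearest tested loci on either side, plotted against distance from the centre of each cluster in kb, with bars for the standard error and filled points for an adjusted p under 0.05. Mir10a is left out. Beside Hoxd the called rows of the cluster lie below 0 and Mtx2 lies at 0.90.

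Of the genes that act with Hox proteins, the TALE family holds the Pbx, Meis and Pknox cofactors. Of 9 members, 8 were tested, with a median of -0.23. Meis1 and Meis2 had differences of -0.20 and -0.02 (limma adjusted p = 0.489 and 0.938). For comparison, 11.6% of all tested loci were higher and 7.03% were lower. Of 21 Polycomb genes, with a median of -0.10, 0 were higher and 1 was lower, Jarid2, which helps bring the Polycomb complex to DNA. It had 5.86 ± 0.619 FPKM in TG and 8.36 ± 0.659 FPKM in WT iWAT (SD, n = 3; difference -0.45, limma adjusted p = 0.0239). Ezh2, the histone methyltransferase of that complex, had a difference of 0.03 (limma adjusted p = 0.828). Of 10 Trithorax-type genes, with a median of -0.10, 1 was higher and 0 were lower. That was Dpy30, a small subunit of histone H3K4 methyltransferase complexes (74.4 ± 6.90 against 56.5 ± 4.75 FPKM, SD, n = 3; difference 0.39, limma adjusted p = 0.0408). Kmt2a, listed by its older name Mll1, had a difference of -0.15 (limma adjusted p = 0.314). Of 52 homeobox genes related to the Hox family but outside its clusters, 10 were tested, with a median of -0.08. Of these, 2 rose, Hlx and Meox1, and 0 fell. Hlx is the transgene, so its rise was set by the genotype. Meox1, a gene of somite patterning, had 8.38 ± 0.862 FPKM in TG and 5.45 ± 0.710 FPKM in WT iWAT (SD, n = 3; difference 0.54, limma adjusted p = 0.0193). Of 13 noncoding RNAs of the clusters only Mir10a was tested and it was not called, and Hotair had at most 0.0196 FPKM.

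The genes used to tell fat depots apart were read list by list. Of all tested loci, 18.6% were called in either direction. Of 4 developmental genes of subcutaneous fat, Tbx15, Shox2, En1 and Sfrp2, 0 passed the test and the median was -0.24. Tbx15 had a difference of -0.33 (limma adjusted p = 0.069) and Shox2 one of 0.45 (limma adjusted p = 0.093). Of 9 visceral and mesothelial genes, 4 were tested with a median of -0.25, and 1 was lower, the nuclear receptor gene Nr2f1 (0.726 ± 0.240 against 1.57 ± 0.274 FPKM, SD, n = 3; difference -0.58, limma adjusted p = 0.043). Wt1, a defining gene of visceral fat, was listed at 0 in every library. Of 5 genes of interscapular brown fat, 4 were tested, with a median of -0.41. Mpzl2 rose from 7.52 ± 2.23 to 19.7 ± 3.76 FPKM (SD, n = 3; difference 1.30, limma adjusted p = 0.009), and Lhx8 fell from 1.92 ± 0.384 to 0.774 ± 0.071 FPKM (SD, n = 3; difference -0.71, limma adjusted p = 0.013). Zic1, the defining gene of that depot, had at most 0.008 FPKM. Of 7 limb position genes, 4 were tested with a median of 0.02 and 0 passed, and Tbx5 had a difference of 0.48 (limma adjusted p = 0.051).

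Markers of the cells of the fat pad were compared between the genotypes and summed for each mouse. By the same test, 11.6% of all tested loci were higher and 7.03% lower. Every TG mouse lay below every WT mouse at 20.1% of all tested loci, and above at 22.8%. Of 5 macrophage rows, 4 were lower in TG iWAT, and the summed FPKM was 343 to 487 in TG and 727 to 923 in WT mice. Of 7 lymphocyte genes 1 was lower, with sums of 257 to 351 and 335 to 458 FPKM. Adipocyte sums were 28326 to 33434 FPKM in TG and 24472 to 30367 FPKM in WT mice. Most of this sum was Fabp4, and the other 4 genes summed to 3766 to 4342 FPKM in TG and 5175 to 6828 FPKM in WT mice, with no overlap. Of the 5 genes, Adipoq and Lpl were lower by the test and 0 were higher. The fibroblast and progenitor list gave 0 of 6 calls, with sums of 946 to 1217 FPKM in TG and 1120 to 1492 FPKM in WT mice. Epithelial and mammary markers summed to 113, 162 and 264 FPKM in TG and 294, 266 and 174 FPKM in WT mice, with 0 of 10 called. Of 5 endothelial genes 2 were higher (sums of 140 to 148 and 124 to 134 FPKM). Of 4 Schwann cell genes 2, S100b and Mbp, were higher (90.6 to 127 and 26.5 to 36.5 FPKM). Without S100b, the most abundant over all mice, the Schwann cell sums were 34.0 to 53.1 and 24.1 to 33.4 FPKM. Sox10 overlapped between genotypes (difference -0.27, limma adjusted p = 0.659). Of 3 erythroid rows 1 was higher (1139 to 1357 and 526 to 962 FPKM). No call was made among 5 mural genes (143 to 216 and 156 to 227 FPKM). None of 6 skeletal muscle genes was called either (226 to 806 and 205 to 331 FPKM), with a median difference of 2.18. The most abundant muscle row was the joint row of Lsp1 and Tnnt3. Without it the muscle sums were 62.9, 473 and 91.4 FPKM in TG and 4.96, 92.4 and 23.9 FPKM in WT mice. Muscle RNA was thus uneven between mice and highest in TG replicate 2. The part of these cells in the Hox differences was not tested.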

How the data were processed

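RNA-Seq was carried out on iWAT of 3 TG and 3 WT mice, 1 library per mouse, with the TruSeq RNA V2 kit, which does not mark strand. Per the submitters' processing notes CASAVA 1.8.2, TopHat2 2.0.9, Bowtie2 2.1.0 and Cufflinks 2.2.1 were used with build mm10. The annotation is not given in the sources used here. The authors deposited FPKM per gene locus and mouse. Counts were not used here. The log2(FPKM + 1) of each value was taken for loci with a mean above 1 FPKM in at least 1 genotype, and TG was compared with WT by limma 3.58.1 in R 4.3.3 (lmFit, then eBayes with a mean trend), two-sided and without covariates, with Benjamini-Hochberg adjustment over 11692 loci. The procedure was tested on simulated data. Python 3.11.15 and matplotlib 3.10.9 were used for the figures.

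The rule was to name every Hox row that passed the filter, the others are given by range, and listed genes were named if they passed the test or define a depot. The members, lists and tests were chosen with earlier results of these data known. Rows of one symbol are numbered by falling mean FPKM, and joint rows were kept. Older symbols were matched by name and position. Relative depth was read from values under 0.3 FPKM, of which 12.6% to 15.3% lay on the step. The alternatives were pseudocount 0.1, no filter, a filter on the overall mean, median-ratio scaling, quantile normalization, no trend, sample quality weights, single-symbol rows, a replicate block, an adjusted p under 0.01, each mouse left out and summed rows. Not every row that meets the rule is reported or plotted here.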

Additional observations from a re-analysis of the deposited data

How the results depend on the processing

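The 5 lower Hox rows numbered 5 as well with pseudocount 0.1, a filter on all samples, quantile normalization, median-ratio scaling, no trend, quality weights and summed rows. Without the filter there were also 5, but Hoxd10 was called and Hoxd8 row 1 was not. With an adjusted p under 0.01, 1 Hox row was lower, and 569 of all loci were higher and 199 lower. With a mouse left out, 2 to 3 Hox rows were lower, 780 to 1295 of all loci were higher and 329 to 906 were lower. The cause was not tested. The mean of its genotype was taken off each mouse at each tested locus. These deviations correlated by 0.0129, 0.0344 and 0.0701 between same-numbered TG and WT mice, so the numbers gave no sign of a pairing. The replicate block gave 3 lower Hox rows and 1 higher, Hoxc10. In the deviations, no mouse correlated best with the mouse of the other genotype that had its own number. The highest correlations were 0.1347 for TG 1 with WT 2, 0.1252 for TG 3 with WT 1 and 0.1058 for TG 2 with WT 3. Some rows that passed no test changed sign. Quality weights gave -0.0487 for Hoxa7,Mira, -0.0013 for Hoxa9 and -0.0037 for Hoxc4. With a mouse left out, Hoxa10 row 1 ran from -0.25 to 0.10, Hoxa7,Mira from -0.13 to 0.13, Hoxa9 from -0.0709 to 0.44, Hoxb2 from -0.20 to 0.0320, Hoxb3 row 2 from -0.28 to 0.0410 and Hoxc4 from -0.0557 to 0.17. Since the absolute depth is unknown, the precision of rows near 1 FPKM could not be computed from counts.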
